A study of Mus musculus with 6 samples.

Results

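The genes described here encode the intermediate filament proteins of heart muscle and the proteins that anchor or protect those filaments. The members were named by gene symbol: Des, Vim, Nes, Synm, Sync, Lmna, Plec and Cryab. All 8 were measured, among 18193 genes on the arrays, and together they had 24 probe sets annotated to a single gene, of 45037 that were not controls. Each gene is represented by its brightest probe set (highest mean of 6 arrays), and the other 16 are given beside it. The study compared hearts of Des-/- mice, which lack desmin, with hearts of TNFαDes-/- mice, which lack desmin and by their label also overexpress the cytokine TNF-α in the heart. All mice were 3 months old, every array carried heart RNA, and each group had 3 arrays. Desmin was deleted in both groups, so no array shows a heart with intact desmin. The Des-/- mice were of the strain 129SV and the TNFαDes-/- mice of a mixed 129SV/C57 background, so that the effect of strain and that of TNF-α cannot be told apart. RNA of 3 hearts per genotype was pooled before labelling according to the labels, and nothing says that the arrays of a group came from separate pools, so the p-values measure the spread between arrays, which may be technical. The sources used here do not give the transgene's promoter or the allele that removes desmin. In RNA of whole hearts, fewer cells of a type and less RNA per cell cannot be told apart.

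Intermediate filaments are rope-like polymers of coiled-coil rod proteins. In a heart muscle cell desmin filaments surround the Z-discs and tie the myofibrils to one another, to the cell membrane, to mitochondria and to the nucleus. Synemin and syncoilin are filament proteins that depend on desmin or vimentin partners, plectin is a giant crosslinker that fastens filaments to other structures, lamin A/C forms the filament meshwork inside the nucleus, and αB-crystallin is the small heat shock protein that keeps desmin from aggregating. Vimentin and nestin are filament proteins mainly of non-muscle cells and of immature muscle.

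The values are RMA summaries on the log2 scale, so a difference of 1 is a doubling, and levels of different probe sets are not compared. The array medians lay between 5.02 and 5.08. Replicate 1 of Des-/- stood apart from its group: its 99th percentile was 12.27, against 11.75 and 11.69 on the other Des-/- arrays and 12.26 to 12.31 on the TNFαDes-/- arrays. The main probe set of each member is therefore also given after quantile normalization, which puts all 6 arrays on 1 distribution, and without that array. The log2 ratio of the 3' to the 5' control probe set of Gapdh, a measure of RNA integrity, also moved with the group, at -0.01 ± 0.03 in Des-/- and 0.32 ± 0.04 in TNFαDes-/- hearts (SD, n = 3). The probe set of Tnf read 5.79 to 5.97 in Des-/- and 5.73 to 6.09 in TNFαDes-/- hearts. The groups overlapped (change 0.07 ± 0.12, SE; adjusted p = 0.746 in limma), so the labelled overexpression is not seen in this probe set. Of 9 cardiomyocyte markers 0 lay below the array median on all arrays, whereas all 6 skeletal muscle markers did.

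Synm, Sync, Lmna, Cryab and Des were higher in TNFαDes-/- hearts, and Vim, Nes and Plec did not pass the test. Changes are TNFαDes-/- minus Des-/-, tested with limma and adjusted over all genes (Benjamini-Hochberg, threshold 0.05). The count of 5 higher and 0 lower among the 8 members stands beside 21.3% of all genes called, 15.2% higher and 6.05% lower. The groups did not overlap for the same 5 members, all higher, beside 38.0% of all genes (24.3% higher and 13.7% lower). The median change of the members was 0.53 and that of all genes 0.04. After quantile normalization the medians were 0.32 and -0.0039, and 4 members were higher (Synm, Sync, Lmna and Cryab) and 1 lower (Vim), beside 12.0% and 10.4% of all genes (22.5% in either direction). The groups then did not overlap for 6 members, beside 39.6% of all genes. Without Des-/- replicate 1, 5 members were higher and 0 lower, beside 32.0% of all genes called (23.4% higher and 8.56% lower).

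**Figure D1:**
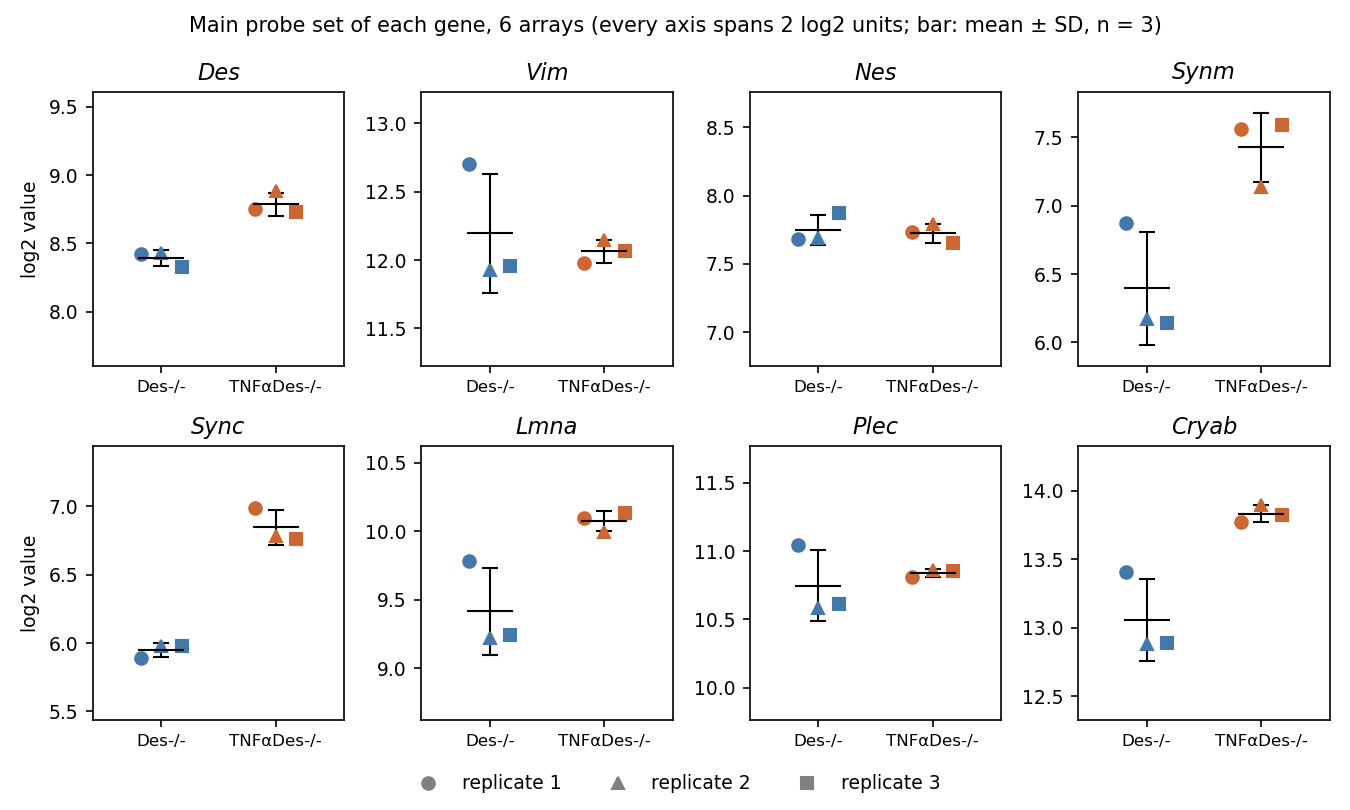
Log2 value of the main probe set of each of the 8 genes on every array, by group; symbols mark the replicates, horizontal bars the mean and vertical bars the SD (n = 3), and every axis spans 2 log2 units. The TNFαDes-/- arrays lie above all Des-/- arrays for Des, Synm, Sync, Lmna and Cryab, and replicate 1 of Des-/- is the highest of its group for Vim, Synm, Lmna, Plec and Cryab.

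Des encodes desmin, the gene deleted in both groups, so its signal checks no label that separates them. Its brighter probe set, 1426731_at, read 8.42, 8.43 and 8.33 on the Des-/- arrays and 8.75, 8.88 and 8.73 on the TNFαDes-/- arrays. Every TNFαDes-/- array was above every Des-/- array, and the change was 0.39 ± 0.10 (SE, 1.31-fold, limma adjusted p = 0.0219). The other probe set, 1426732_at, read 4.95, 5.24 and 5.19 against 4.76, 4.91 and 4.50. There the order was turned, with every TNFαDes-/- array below every Des-/- array, although the change of -0.40 ± 0.13 did not pass over all probe sets (limma adjusted p = 0.0829). It was below the array median on 4 of the 6 arrays, and it passed as lower without Des-/- replicate 1 (-0.49, adjusted p = 0.0321), also after quantile normalization of the remaining arrays (-0.46, adjusted p = 0.0328), and with array weights (-0.49, adjusted p = 0.00497). The difference between the probe sets, taken within each array, itself moved by -0.79 ± 0.15 between the groups (limma adjusted p = 0.0117 over 16752 such pairs). Without Des-/- replicate 3 (-0.73) or TNFαDes-/- replicate 3 (-0.71) that difference missed the threshold (adjusted p = 0.0538 and 0.0549). Whether either probe set lies within the deletion was not analysed here. The call of the main probe set held without Des-/- replicate 1 (0.41, adjusted p = 0.0157). It ended after quantile normalization (0.22, adjusted p = 0.199) and with any other array left out: it was 0.41 without Des-/- replicate 2, 0.36 without Des-/- replicate 3, and 0.41, 0.34 and 0.42 without TNFαDes-/- replicates 1, 2 and 3 (adjusted p 0.0515 to 0.0929).

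Synm and Sync, which encode the desmin partners synemin and syncoilin, had the largest changes of the 8 genes on their main probe sets. The main probe set of Synm, 1457275_at, read 6.87, 6.17 and 6.14 in Des-/- and 7.56, 7.13 and 7.59 in TNFαDes-/- hearts. The groups were apart, although the highest Des-/- array and the lowest TNFαDes-/- array were close, and the change was 1.03 ± 0.21 (SE, 2.04-fold, limma adjusted p = 0.00962). Its other probe set, 1455610_at, moved the same way, from 6.05 ± 0.19 to 6.53 ± 0.15 (SD, n = 3; change 0.48 ± 0.13, adjusted p = 0.0419 in limma). That call was lost without Des-/- replicate 2 (0.51) or 3 (0.38) and without TNFαDes-/- replicate 1 (0.47) or 3 (0.41), with adjusted p of 0.102 to 0.151. The Synm change was 0.96 after quantile normalization and 1.27 without Des-/- replicate 1. The call was lost without TNFαDes-/- replicate 3 (0.95, adjusted p = 0.0527). Smooth muscle cells also make desmin and synemin. Of 7 smooth muscle and pericyte markers 1 was higher (Acta2) and 1 lower (Myh11), beside 15.2% and 6.05% of all genes. The log2 of the summed level of the 7 markers was 12.87 to 13.45 in Des-/- and 13.82 to 13.91 in TNFαDes-/- hearts. That sum follows Acta2 (11.27 ± 0.29 and 13.16 ± 0.04, SD, n = 3), and the mean log2 value of the 7 markers overlapped (9.08 to 9.58 and 9.34 to 9.40; median change 0.06). For the 9 cardiomyocyte markers the log2 of the summed level was 16.94 to 17.62 and 17.51 to 17.55. The part of these cells in the Des and Synm values was not tested.

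Sync was measured with little spread. Its main probe set, 1422118_at, read 5.89, 5.98 and 5.98 in Des-/- and 6.99, 6.78 and 6.76 in TNFαDes-/- hearts. The gap between the groups was several times the spread within either, and the change of 0.90 ± 0.10 (SE, 1.86-fold, limma adjusted p = 0.000739) passed under all 17 alternative settings. It was 0.85 after quantile normalization, 0.87 without Des-/- replicate 1, and 0.82 to 0.94 with any 1 array left out. The probe set 1432349_a_at also rose, from 4.81 ± 0.14 to 5.49 ± 0.18 (SD, n = 3; change 0.68 ± 0.12, limma adjusted p = 0.00944), but its Des-/- values lie below the array medians. The probe set 1432350_at read 5.53, 5.71 and 5.70 against 5.51, 5.59 and 5.69. The groups overlapped there, with a change of -0.05 ± 0.10 (SE), at percentiles 57.1 to 59.7 of the arrays. Its difference from the main probe set within each array moved by -0.94 ± 0.15 (limma adjusted p = 0.00553), which mainly restates the change of the latter.

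The promoter windows of Des and of its partners Synm and Sync are shown, which moved in the same direction on their main probe sets. Lmna also moved in that direction on its main probe set, and its windows are not shown. Each window runs from 250 bases before to 50 bases after the annotated start and comes from RefSeq (GRCm38.p6). The windows are chr1:75360042-75360341 on the plus strand for Des, chr7:67759693-67759992 on the minus strand for Synm and chr4:129287371-129287670 on the plus strand for Sync. Capitals mark 3 motifs searched on both strands: the E-box CAGCTG read by myogenic bHLH factors, the CCAAT box, which reads ATTGG on the other strand, and a heat shock element of alternating triplets, in which GAANNTTC overlaps TTCNNGAA. The heat shock element was added to the search after the windows had been seen.
Des: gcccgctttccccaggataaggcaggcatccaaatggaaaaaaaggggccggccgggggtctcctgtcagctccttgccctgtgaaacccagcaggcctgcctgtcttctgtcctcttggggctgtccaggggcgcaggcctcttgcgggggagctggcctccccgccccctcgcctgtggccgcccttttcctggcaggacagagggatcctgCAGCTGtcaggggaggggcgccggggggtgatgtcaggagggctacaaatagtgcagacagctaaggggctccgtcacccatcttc
Synm: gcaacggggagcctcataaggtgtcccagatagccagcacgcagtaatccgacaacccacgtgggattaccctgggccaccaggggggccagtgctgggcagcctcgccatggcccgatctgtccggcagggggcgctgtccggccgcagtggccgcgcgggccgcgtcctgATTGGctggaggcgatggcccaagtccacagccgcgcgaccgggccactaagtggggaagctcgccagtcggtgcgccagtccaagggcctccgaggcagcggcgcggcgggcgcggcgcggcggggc
Sync: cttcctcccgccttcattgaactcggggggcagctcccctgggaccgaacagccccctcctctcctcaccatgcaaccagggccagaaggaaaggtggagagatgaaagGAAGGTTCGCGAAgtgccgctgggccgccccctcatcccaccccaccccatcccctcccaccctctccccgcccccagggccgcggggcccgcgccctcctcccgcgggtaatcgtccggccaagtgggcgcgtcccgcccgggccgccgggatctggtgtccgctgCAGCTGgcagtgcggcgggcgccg
The Sync window holds the heat shock element at bases 110 to 122 as GAAGGTTCGCGAA, which is found in 0.608% of 32544 promoter windows of this length, and CAGCTG at bases 277 to 282. The Des window holds CAGCTG at bases 215 to 220, a motif found in 16.4% of windows. The Synm window holds neither, and has ATTGG at bases 173 to 177, where CCAAT on either strand is found in 37.4% of windows. No match was found in these windows to a MEF2 site or a CArG box, motifs known from muscle genes. Of the 8 members, 6 had a window in the table, with 7 windows in all, and the heat shock element was found in that of Sync alone. These are matches of letters and do not show that a factor binds.

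Vim encodes vimentin, the filament protein of fibroblasts, endothelial cells and leukocytes, and its call depended on the scaling of the arrays. The main probe set, 1450641_at, read 12.70, 11.93 and 11.95 in Des-/- and 11.98, 12.15 and 12.06 in TNFαDes-/- hearts. The TNFαDes-/- arrays lay between replicate 1 of Des-/- and the other Des-/- arrays, so the groups overlapped, and the change was -0.13 ± 0.20 (SE, 95% confidence interval -0.58 to 0.32, limma adjusted p = 0.697). After quantile normalization the same probe set read 12.51, 12.28 and 12.36 against 11.79, 11.99 and 11.89. The groups then no longer overlapped and the change was -0.49 ± 0.10 (adjusted p = 0.00814), while without Des-/- replicate 1 the deposited values gave 0.12 (adjusted p = 0.357) and quantile normalized ones -0.43 (adjusted p = 0.0152).

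The other probe sets of Vim were lower on all TNFαDes-/- arrays as deposited, without passing the test. The probe set 1438118_x_at read 12.23, 11.43 and 11.33 against 11.27, 10.83 and 11.11, a change of -0.59 ± 0.23 (adjusted p = 0.132 in limma), and 1456292_a_at had -0.67 ± 0.28 (adjusted p = 0.16). Their TNFαDes-/- arrays all lay under the lowest Des-/- array, by small margins. After quantile normalization the changes were -0.95 and -1.02 (adjusted p = 0.00187 and 0.00465).

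Nes encodes nestin, a large filament protein of progenitors, endothelium and injured muscle, and no probe set of it passed. Its main probe set, 1449022_at, read 7.68, 7.69 and 7.87 in Des-/- and 7.73, 7.79 and 7.65 in TNFαDes-/- hearts. The groups overlapped almost fully, with a change of -0.02 ± 0.10 (SE, 95% confidence interval -0.26 to 0.21, limma adjusted p = 0.898), -0.16 (adjusted p = 0.403) after quantile normalization and -0.0582 without Des-/- replicate 1. The probe set 1418289_at read 6.03, 6.68 and 6.60 against 5.85, 6.25 and 5.90, a change of -0.44 ± 0.19 (adjusted p = 0.163). It passed without Des-/- replicate 1 (-0.65, adjusted p = 0.0126). The probe set 1453997_a_at lay below the median of each array.

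Markers of the non-muscle cells that carry vimentin and nestin moved both ways. Their counts stand beside 15.2% of all genes higher and 6.05% lower. Of 7 endothelial markers 0 were higher and 3 lower (Pecam1, Tie1 and Tek), with Tie1, an endothelial receptor, at -0.57 ± 0.12 (SE, limma adjusted p = 0.00955). The log2 of their summed level was 11.51 to 11.83 in Des-/- and 11.28 to 11.33 in TNFαDes-/- hearts. Of 8 fibroblast markers 2 were higher (Dcn and Col1a2) and 0 lower, with summed levels of 14.00 to 14.59 and 14.64 to 14.68. Dcn is the brightest of these and weighs most in the sum; the mean log2 value of the list overlapped between the groups (10.25 to 10.79 and 10.60 to 10.64). Of 7 macrophage markers 5 were higher and 1, Cd68 (-1.48 ± 0.13, adjusted p = 2.00e-04), was lower, with summed levels of 12.79 to 13.21 and 13.38 to 13.42. Of 3 measured Schwann and glial markers 0 passed, with summed levels of 7.19 to 7.65 and 7.01 to 7.50, and of 3 adipocyte markers 2 were lower, Adipoq (-1.27 ± 0.19) and Cidec (-0.66 ± 0.09). With each array left out in turn, Tie1, Col1a2, Dcn, C1qa, Cd68, Adipoq and Cidec kept their calls in all 6 cases, Tek in 5, Pecam1 in 3, and Adgre1, Csf1r, Mrc1 and C1qb in 2. The Col1a2 call was lost after quantile normalization (0.30, limma adjusted p = 0.136) and as the mean of its probe sets (0.26, adjusted p = 0.0746). It was also lost with shared probe sets left out (0.03, adjusted p = 0.882). After quantile normalization 5 endothelial markers were lower, and 1 fibroblast marker was higher and 4 lower. The shares of all genes were then 12.0% higher and 10.4% lower. The part of these cells in the Vim and Nes values was not tested.

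Lmna encodes lamin A/C, and 3 of its 5 probe sets were higher in TNFαDes-/- hearts. The main probe set, 1421654_a_at, read 9.78, 9.22 and 9.24 in Des-/- and 10.10, 9.99 and 10.13 in TNFαDes-/- hearts. The TNFαDes-/- arrays were tightly grouped above all Des-/- arrays, and the change was 0.66 ± 0.16 (SE, 1.58-fold, limma adjusted p = 0.0178). It was 0.42 after quantile normalization (adjusted p = 0.00971) and 0.84 without Des-/- replicate 1. The call was lost without Des-/- replicate 2 (0.56) or 3 (0.57) and without TNFαDes-/- replicate 1 (0.65) or 3 (0.63), with adjusted p of at most 0.0768.

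The largest Lmna change was on the probe set 1457670_s_at, which read 7.19, 6.96 and 6.76 against 8.13, 8.05 and 8.20. The groups were separated by far more than their spread, with a change of 1.15 ± 0.13 (SE, adjusted p = 0.00102 in limma), and 1.04 after quantile normalization. The probe set 1425472_a_at rose by 0.48 ± 0.13 (adjusted p = 0.0425), a call lost after quantile normalization (0.30, adjusted p = 0.135), without Des-/- replicate 2 (0.45) or 3 (0.41) and without TNFαDes-/- replicate 1 (0.44) or 2 (0.41). The remaining probe sets, 1426868_x_at (0.18 ± 0.12) and 1452212_at (-0.24 ± 0.16), lay near the array medians and did not pass. They were below the array median on 2 and 3 of the 6 arrays, so their difference from the main probe set mainly restates the change of the latter. Measured against the main probe set within each array, 1457670_s_at moved by 0.49 ± 0.14 (adjusted p = 0.0454). That call was lost with an intensity trend (adjusted p = 0.0524), with a replicate block (adjusted p = 0.0594) and with treat at 1.2-fold. It was also lost with any 1 array left out (0.42 to 0.58, adjusted p 0.0615 to 0.144). It held after quantile normalization (0.62, adjusted p = 0.0156).

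Partner proteins hold lamin A/C to the nuclear membrane. Of 12 genes of such nuclear envelope partners 1 was higher and 0 lower (median 0.18), beside 21.3% of all genes called and a median of 0.04, and 0 passed after quantile normalization (median -0.01). The gene that passed was Sun2, which spans the inner nuclear membrane and couples lamins to the cytoskeleton, at 0.38 ± 0.10 (SE, limma adjusted p = 0.0284), and 0.15 (adjusted p = 0.271) after quantile normalization. Its call was lost without Des-/- replicate 2 (0.35) or 3 (0.36) and without TNFαDes-/- replicate 1 (0.37) or 3 (0.35), with adjusted p of at most 0.111. Emd, which encodes emerin, stood at 0.10 ± 0.11 (adjusted p = 0.595), and the B-type lamin gene Lmnb1 at -0.0020 ± 0.13 (adjusted p = 0.994). Without Des-/- replicate 1, 4 of the 12 genes were higher, beside 23.4% of all genes. With array weights 7 were higher, beside 5501 of all 18193 genes. Sun1 was lower as the mean of its probe sets (-0.55, adjusted p = 0.00219), and Tmpo was higher with shared probe sets left out (0.54, adjusted p = 0.0320).

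Plec encodes plectin, and none of its probe sets passed as deposited. The main probe set, 1419835_s_at, read 11.05, 10.58 and 10.61 in Des-/- and 10.81, 10.86 and 10.85 in TNFαDes-/- hearts. The TNFαDes-/- values fell between those of the Des-/- arrays, with a change of 0.09 ± 0.14 (SE, 95% confidence interval -0.21 to 0.40, limma adjusted p = 0.685). After quantile normalization the sign turned, at -0.26 (adjusted p = 0.0517), and the groups no longer overlapped. Without Des-/- replicate 1 the change was 0.24 as deposited (adjusted p = 0.0632). Quantile normalized values without that array gave -0.29, which passed as lower (adjusted p = 0.0386). The probe set 1434610_at read 10.94, 10.34 and 10.38 against 10.22, 10.37 and 10.05, a change of -0.34 ± 0.17 (adjusted p = 0.237 over all probe sets), and -0.66 (adjusted p = 0.00633) after quantile normalization. The direction of Plec is therefore not settled by these arrays. The probe set 1437554_at was dimmer than the array median throughout, and 1 probe set shared by Parp10 and Plec was not used.

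As deposited, the calls among other plakins and filament anchoring sites were near the shares of all genes in both directions. Of 18 genes 3 were higher and 1 lower (median 0.20), beside 15.2% and 6.05% of all genes (21.3% in either direction). After quantile normalization 1 was higher and 3 lower (median 0.04), beside 12.0% and 10.4% of all genes (22.5% in either direction). Dst, which encodes the plakin dystonin, rose by 0.85 ± 0.11 (SE, 1.80-fold, limma adjusted p = 0.0012), 0.48 after quantile normalization (adjusted p = 0.032) and 0.20 as the mean of its probe sets (adjusted p = 0.12). Ppl, which encodes periplakin, a crosslinker known from epithelia, read 7.84, 7.80 and 8.04 in Des-/- and 6.73, 6.87 and 6.88 in TNFαDes-/- hearts. It had the largest fall of the list, 2.09-fold (-1.07 ± 0.11, adjusted p = 0.000389), and passed with any 1 array left out. Vcl, for vinculin at costameres and intercalated discs, rose by 0.61 ± 0.13 (adjusted p = 0.0108), lost without TNFαDes-/- replicate 1 (0.59, adjusted p = 0.0521) and after quantile normalization (0.24, adjusted p = 0.0663), and at -0.28 as the mean of its probe sets. Dag1, for the membrane anchor dystroglycan, rose by 0.51 ± 0.13 (adjusted p = 0.0279), a call that held without Des-/- replicate 1 (0.66) but not without any other array (0.42 to 0.51, adjusted p up to 0.106) nor after quantile normalization (0.15). Dsp, for desmoplakin, which binds desmin at the desmosome, stood at 0.30 ± 0.19 (adjusted p = 0.292). Its sign turned after quantile normalization (-0.06) and as the mean of its probe sets (-0.55, adjusted p = 0.0518), without passing. Without Des-/- replicate 1, 9 of the 18 were higher and 1 lower, beside 23.4% and 8.56% of all genes.

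Cryab, which encodes αB-crystallin, was higher on its main probe set. That probe set, 1416455_a_at, read 13.40, 12.88 and 12.89 in Des-/- and 13.77, 13.90 and 13.82 in TNFαDes-/- hearts. The TNFαDes-/- arrays varied little and lay above all Des-/- arrays, and the change was 0.77 ± 0.15 (SE, 1.71-fold, limma adjusted p = 0.00764). It passed with any 1 array left out (0.69 to 0.95, the latter without Des-/- replicate 1). After quantile normalization the change was 0.44 (adjusted p = 0.0053), smaller by more than 1.5 times. The levels stand near the top of the arrays, whose highest values were 14.20 and 14.23 on Des-/- replicates 2 and 3 and 14.95 to 15.04 on the others, so the size of the change is the less certain part.

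The probe set 1434369_a_at read 13.16, 12.49 and 12.42 against 13.33, 13.23 and 13.34. Its groups did not overlap either, with a change of 0.61 ± 0.19 that missed the threshold (adjusted p = 0.0639 in limma) and passed without Des-/- replicate 1 (0.84, adjusted p = 0.000952). The probe set 1435837_at was dimmer than the median on every array, with a change of -0.05 ± 0.11. None of the 9 cardiomyocyte markers passed beside Cryab as deposited (median 0.40). Of these, 8 were higher without Des-/- replicate 1, beside 23.4% of all genes. After quantile normalization 2 were lower, beside 10.4% of all genes.

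Small heat shock proteins and chaperones act with αB-crystallin on misfolded filament proteins. Of the 16 genes of this list 7 were higher, 0 lower and 9 did not pass (median 0.53), beside 15.2% of all genes higher and a median of 0.04, and after quantile normalization 7 were higher and 1, Hspb6, lower (-0.39, adjusted p = 0.0098; -0.05 as deposited; median of the list 0.31). Hspb2, the gene next to Cryab on the chromosome, read 9.62, 9.59 and 9.49 in Des-/- and 10.23, 10.35 and 10.33 in TNFαDes-/- hearts. The neighbours thus both changed upward, Hspb2 by 0.74 ± 0.10 (SE, 1.67-fold, limma adjusted p = 0.00123), or 0.46 after quantile normalization. Hspb1, whose protein Hsp27 forms mixed complexes with αB-crystallin, rose 2.29-fold (SE of 0.17 on the log2 scale, adjusted p = 0.00213). Hspb8, which works with the co-chaperone Bag3 in removing damaged muscle proteins, rose by 1.28 ± 0.17 (2.43-fold, adjusted p = 0.00141), and Hspb7, the cardiovascular family member, by 1.15 ± 0.12 (2.21-fold, adjusted p = 0.000481). These 4 passed with any 1 array left out. Bag3 itself stood at 0.62 ± 0.21 and did not pass (adjusted p = 0.0652). The other 3 genes called were Dnajb1 (0.63), Trim32 (0.69), the ubiquitin ligase that targets desmin filaments, and Capn2 (0.44), a calpain. They were named after their values were seen. The Trim32 call was lost without Des-/- replicate 2 (0.51) or 3 (0.69) and TNFαDes-/- replicate 1 (0.67) or 3 (0.67), and that of Capn2 without any array other than Des-/- replicate 1 (0.38 to 0.47). Without Des-/- replicate 1, 11 of the 16 were higher, beside 23.4% of all genes.

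**Figure D2:**
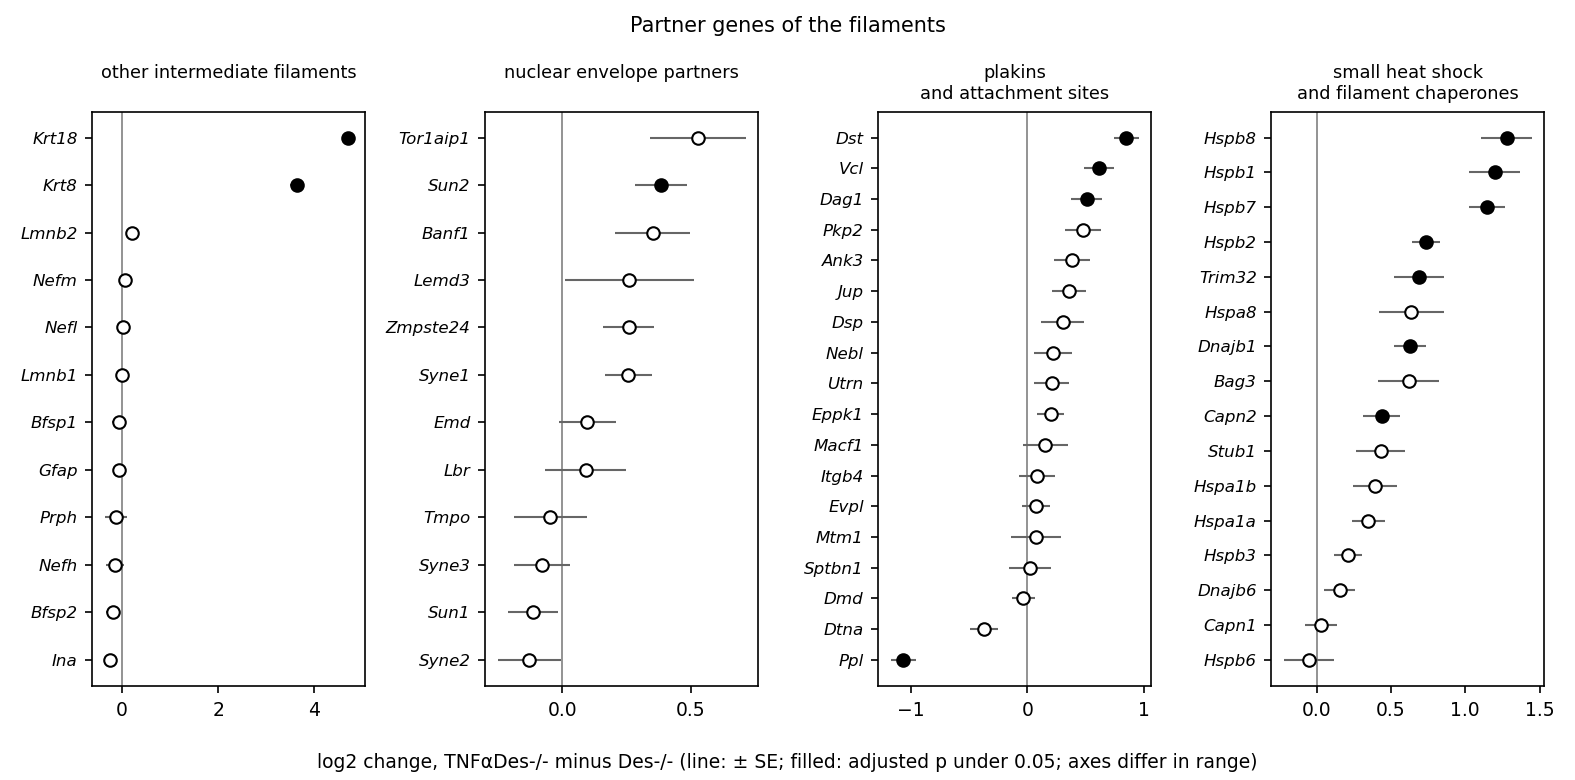
Log2 change, TNFαDes-/- minus Des-/-, of the genes in 4 lists of filament partners, with the SE as a line and filled points for genes past the test; the horizontal axes differ in range. Krt18 and Krt8 stand far to the right among other filament genes, and Sun2 is the filled point among nuclear envelope partners. Ppl stands lowest in the list of plakins and attachment sites. In the list of small heat shock and filament chaperones, which includes Trim32 and Capn2, 7 of 16 genes are filled.

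The other intermediate filament genes of the fixed list did not move as a group. Of 12 genes 2 were higher and 0 lower, beside 15.2% and 6.05% of all genes. The median was -0.04, beside 0.04 for all genes. Of the 12, 5 lay below the median of every array, among them the neurofilament genes Nefl, Nefm and Nefh. The genes that passed were the simple-epithelium keratins Krt18 (4.70 ± 0.10, SE, limma adjusted p = 1.58e-07) and Krt8 (3.63 ± 0.14, adjusted p = 3.12e-06). Their changes exceed those of Synm and Sync several times over on the log2 scale. The glial filament gene Gfap stood at -0.08 ± 0.10 and the peripheral neuron filament gene Prph at -0.13 ± 0.22, and neither passed.

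Over all probe sets of the 8 genes, 9 were higher and 0 lower, beside 9.94% and 4.93% of all probe sets, of which 14.9% were called in either direction, and 13 of the 24 had groups that did not overlap, beside 33.6%. After quantile normalization 7 were higher and 4 lower (3 of Vim and 1 of Plec), beside 8.52% and 7.75% (16.3% in either direction). Of the 16 other probe sets set against the main one of the same gene, 6 changed by an unequal amount, 1 upward and 5 downward, beside 14.8% of all such pairs (4.13% upward and 10.6% downward). These were 1 each for Des, Sync and Cryab and 3 for Lmna. Of the 6, 4 rest on a probe set near or under the array medians. They are those of Des (below on 4 of the 6 arrays), Cryab (on all 6) and 2 of Lmna (on 2 and 3). No unequal change of transcripts is read from these 4. The Sync probe set 1432350_at lay not far above the array medians, at percentiles 57.1 to 59.7, and moved by -0.05. Its difference mainly restates the change of the main probe set, and no unequal change of transcripts is read from it either. The 3' to 5' ratio of Gapdh, given above, differed between the groups, as did that of Actb (0.48 ± 0.08 and 0.73 ± 0.10, SD, n = 3). Its part in these unequal changes was not tested.

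**Figure D3:**
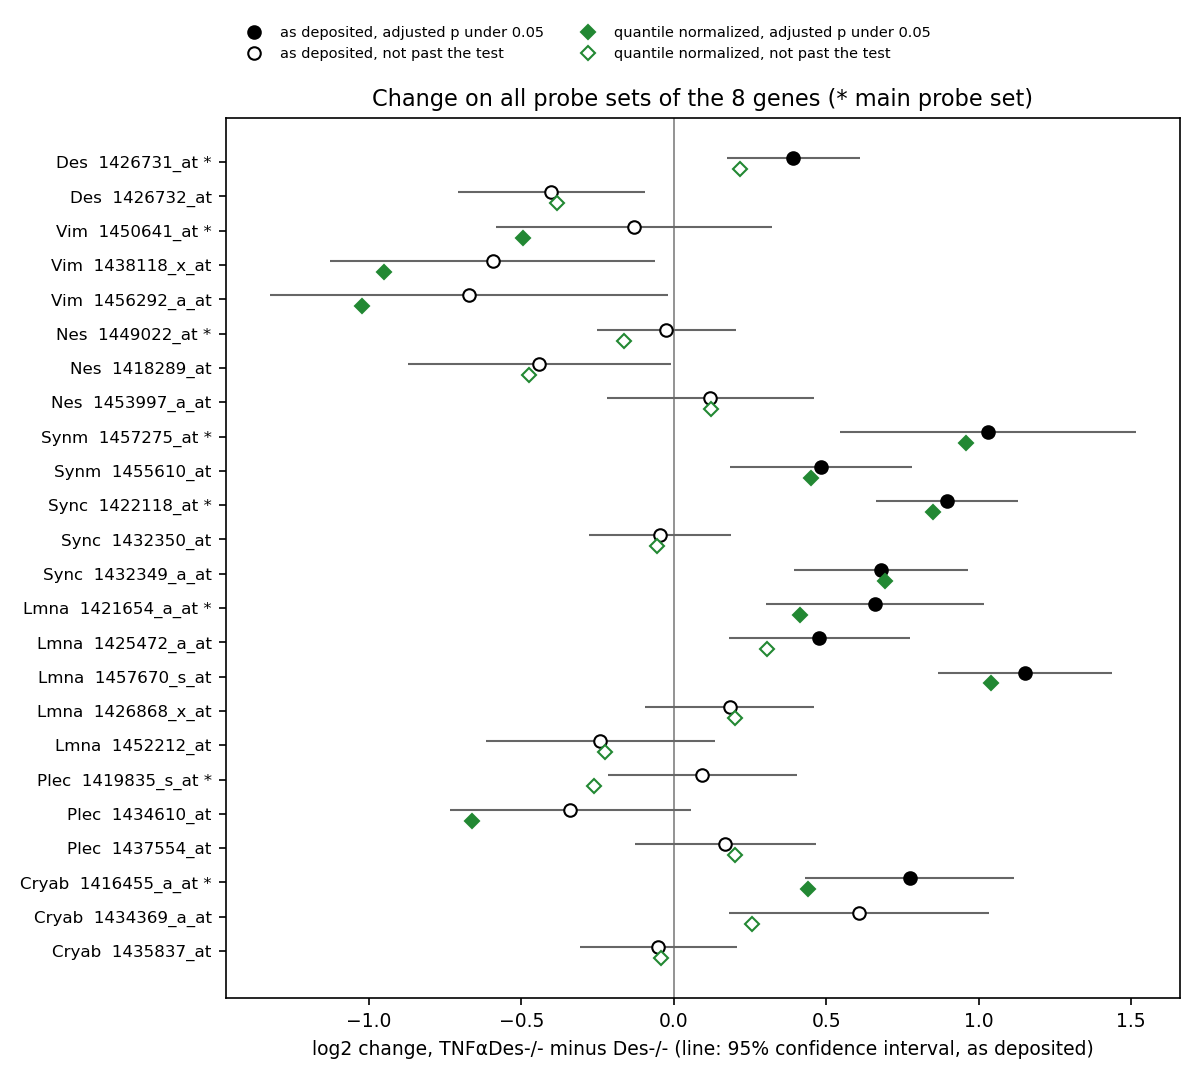
Log2 change, TNFαDes-/- minus Des-/-, of all 24 probe sets of the 8 genes as deposited (circles, with the 95% confidence interval as a line) and after quantile normalization (diamonds); filled symbols passed the test and an asterisk marks the main probe set. The Synm, Sync and Lmna changes stay to the right under both scalings for the probe sets that passed, whereas those of Vim lie further left after quantile normalization.

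**Figure D4:**
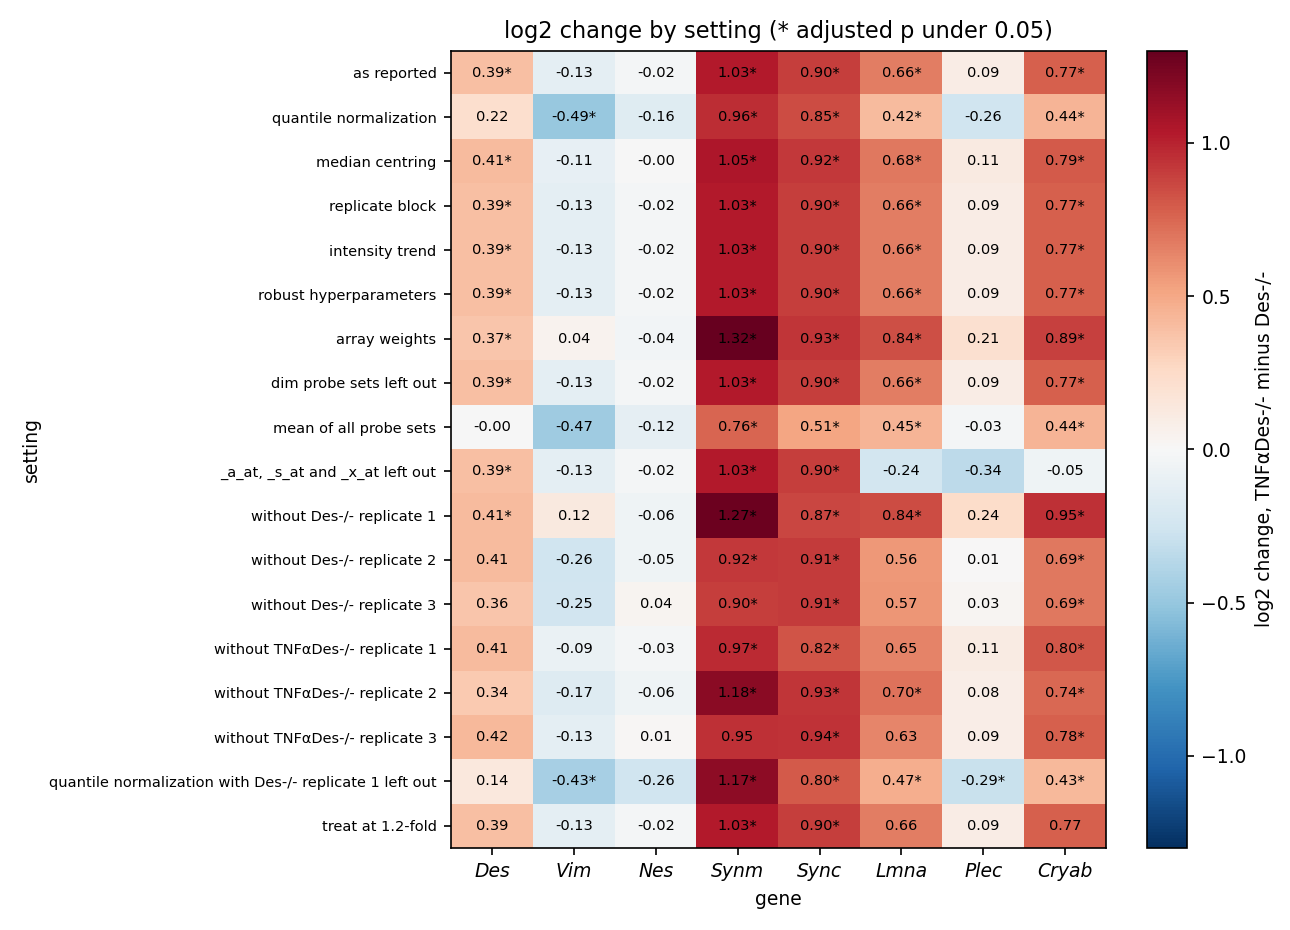
Log2 change, TNFαDes-/- minus Des-/-, of each gene (columns) as reported and under 17 other settings (rows), coloured from negative (blue) to positive (red), with an asterisk for an adjusted p under 0.05. Sync carries an asterisk in every row and Synm in all but 1, while Des carries it in 8 and Nes in 0 of the 17 other settings.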

How the data were processed

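Heart RNA was measured on 6 one-colour Affymetrix arrays, 3 per genotype, grouped by sample title. The log2 values deposited by the authors are RMA summaries, per the submitters' processing notes; the version and any step between arrays are not given in the sources used here. Of 45037 probe sets other than controls, 34945 have 1 gene symbol in the platform annotation, 932 several and 9160 none. For 34741 of the 34945 probe sets the gene identifier was found in the RefSeq table (GRCm38.p6), which changed 0 symbols. The highest-mean probe set stood for each gene. The test was that of limma (lmFit and eBayes, version 3.58.1, with R 4.3.3), per gene, per probe set and per pair of probe sets of a gene, without a filter, with Benjamini-Hochberg adjustment over all features at 0.05. The fits were tested on simulated data. Alternatives covered scaling, variance model, probe set choice, a replicate block and each array left out. Named partner genes are the up to 4 with the smallest adjusted p in each list, with Tnf, Hspb1, Hspb2, Bag3, Dsp, Emd and Lmnb1; other genes, markers included, were picked with their values known. The members and lists were chosen with earlier results of these data known. The number of arrays limits the precision, and no detection calls were used. Figures were drawn with matplotlib 3.10.9.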

Additional observations from a re-analysis of the deposited data

How the results depend on the processing

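Among the 5 members called, Sync kept its call under all 17 alternatives, Synm under 16, Cryab under 15, Lmna under 11 and Des under 8. The count of members called was 3 with probe sets named _a_at, _s_at or _x_at left out, 2 with treat at 1.2-fold, and 2 to 5 with 1 array left out. The 4 lists of partner genes hold 12, 12, 18 and 16 genes. Of these, 14 were called as deposited, beside 21.3% of all genes. The count was 40 with array weights, 8 with treat and 9 to 27 with 1 array left out. Of the 24 member probe sets 9 were called as deposited, beside 14.9% of all probe sets. The count was 14 after quantile normalization with Des-/- replicate 1 left out, 2 with treat and 4 to 12 with 1 array left out. Unequal changes between probe sets numbered 6 of 16 pairs, beside 14.8% of all such pairs. The count was 3 with an intensity trend, 1 with treat and 1 to 7 with 1 array left out. Over all 18193 genes, 3869 were called as deposited, 8414 with array weights, 1222 with treat and 2068 to 5814 with 1 array left out.

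Changes of sign among the members were as follows. With all probe sets averaged, Des turned to -0.0046 and Plec to -0.0257. With probe sets named _a_at, _s_at or _x_at left out, Lmna turned to -0.24, Plec to -0.34 and Cryab to -0.0516, since that setting swaps the probe set. Quantile normalization turned Plec to -0.26, and to -0.29 without Des-/- replicate 1, where it passed as lower (limma adjusted p = 0.0386). Vim turned to 0.0430 with array weights per gene and 0.0373 per probe set, and to 0.12 without Des-/- replicate 1. With 1 array left out Nes ranged from -0.0582 to 0.0371 and was above 0 without Des-/- replicate 3 or TNFαDes-/- replicate 3; Vim ranged from -0.26 to 0.12. The dim Cryab probe set 1435837_at ranged from -0.15 to 0.0163, the latter without TNFαDes-/- replicate 3. Within pairs, Nes 1453997_a_at ranged from -0.0172 (without Des-/- replicate 3) to 0.26, and Plec 1437554_at from -0.0216 (without TNFαDes-/- replicate 2) to 0.16, with -0.0507 under array weights. None of these turned from a call in one direction to a call in the other; the cause was not tested beyond the swapped probe sets.

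The replicate numbers did not pair the arrays: deviations of same-numbered arrays correlated at 0.25, 0.31 and -0.30, and replicate 1 of Des-/- correlated best with replicate 3 of TNFαDes-/- (0.32). With the replicate block 5 members, 18 partner genes, 11 member probe sets, 6 pairs and 4278 genes were called; the probe sets included 1438118_x_at and 1456292_a_at of Vim as lower (adjusted p = 0.0334 and 0.0452) and 1434369_a_at of Cryab as higher (0.0340), while 1455610_at of Synm was lost (0.0519).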
